A study of Mus musculus with 8 samples.

Results

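Hypoxia sensing genes and targets of the hypoxia-inducible factors (HIF) were followed in mouse embryonic fibroblasts with and without Cbx2. The set holds 10 genes, taken by symbol from the 17441 genes of the authors' deposited table, and all 10 were found. They are the HIF subunit genes Hif1a and Epas1, the prolyl hydroxylase genes Egln1 and Egln3, and the targets Vegfa, Adm, Bnip3, Ankrd37, Car9 and Ddit4, which lie outside glycolysis. Primary fibroblasts came from Cbx2-/- embryos, which carry a targeted deletion of the polycomb subunit gene Cbx2, and from wild-type littermates, at embryonic day 18. Both groups were grown to passage 2 in high-glucose medium with serum and pyruvate, and the labels name no low-oxygen treatment. RNA was sequenced from 2 libraries per genotype (about 4.62 Gb each), and ATAC-seq data were not used here. The labels do not state whether the pair of libraries of each genotype represents different embryos, so p-values measure only the spread between these libraries, which may be technical.

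The HIF pathway lets cells respond to a shortage of oxygen. HIF prolyl hydroxylases use oxygen to mark HIF alpha subunits, the marked subunits are bound by the von Hippel-Lindau protein and degraded, and in low oxygen they escape, pair with ARNT and bind hypoxia response elements near target genes. Since HIF alpha is controlled mostly at the protein level, transcript levels of its subunits are not a measure of HIF activity. Egln1 and Egln3 are at once regulators and targets of the pathway.

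The core letters of a hypoxia response element are ACGTG or GCGTG. They are shown for the 4 genes that passed the test below, in the 250 bases before the RefSeq start (GRCm38.p6), 5′ to 3′ on the gene's strand. Capitals mark every match of either core on either strand. A palindromic CACGTG reads as a core on both strands and counts as 2 matches.
Bnip3, chr7:138909507-138909756, minus strand: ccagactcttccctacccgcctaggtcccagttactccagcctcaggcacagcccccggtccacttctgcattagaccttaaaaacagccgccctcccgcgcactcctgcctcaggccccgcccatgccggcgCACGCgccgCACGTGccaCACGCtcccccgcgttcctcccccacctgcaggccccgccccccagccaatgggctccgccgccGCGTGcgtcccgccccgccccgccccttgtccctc
Egln1, chr8:124949255-124949504, minus strand: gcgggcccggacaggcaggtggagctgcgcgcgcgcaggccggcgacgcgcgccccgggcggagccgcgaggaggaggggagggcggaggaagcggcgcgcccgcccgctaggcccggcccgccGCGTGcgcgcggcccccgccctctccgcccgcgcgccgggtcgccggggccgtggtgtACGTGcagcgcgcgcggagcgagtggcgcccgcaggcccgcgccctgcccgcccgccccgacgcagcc
Hif1a, chr12:73907617-73907866, plus strand: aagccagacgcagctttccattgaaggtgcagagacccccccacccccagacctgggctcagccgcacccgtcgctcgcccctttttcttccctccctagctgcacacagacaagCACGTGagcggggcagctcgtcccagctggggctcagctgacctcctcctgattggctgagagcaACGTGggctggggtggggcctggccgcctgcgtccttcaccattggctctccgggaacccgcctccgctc
Adm, chr7:110627407-110627656, plus strand: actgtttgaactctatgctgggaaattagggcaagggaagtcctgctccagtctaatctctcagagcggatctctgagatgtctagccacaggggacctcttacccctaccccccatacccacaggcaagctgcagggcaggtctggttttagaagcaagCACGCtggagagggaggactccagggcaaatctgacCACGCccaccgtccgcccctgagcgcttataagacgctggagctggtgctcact
Bnip3 held 5 matches, Hif1a 3, and Egln1 and Adm 2 each. The table of promoters matched 9 of the 10 genes, with 10 starts, and Epas1 had no entry. Ankrd37 held 4 matches, Ddit4 2, and Egln3 and Car9 1 each. Vegfa held 0 at its outer start and 2 at a second start. At least 1 match stood before 90% of the members' starts and before 51% of the 17087 starts of genes in the deposited table. The median GC content was 63% over the members' starts and 58.4% over those of the table. The median number of CG dinucleotides, which both cores contain, was 12.5 and 13. Matches stood before genes that fell and before the gene that rose, Adm. The Hif1a start shown, the Ankrd37 start and the second Vegfa start lie inside the annotated spans of their genes. A match of these letters describes the sequence and does not show that a factor binds there.

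The deposited table gives 1 normalised value per genotype, with the authors' DESeq2 fold change and p. Whole reads per library were recovered from these values for 17083 genes (97.9%), including all 10 members. Below, a scaled read is a read divided by its library's size factor, which lay between 0.935 and 1.03. The libraries of a genotype are named a and b, since which replicate label each carries is not known. Among 3702 genes with a mean above 1000 the libraries of a genotype differed with a median coefficient of variation of 2.44% in wild type and 1.92% in knockout. The pairs were further apart than read sampling alone would give, with a chi-square averaging 1.99 a gene in wild type and 1.49 in knockout where sampling gives about 1, so each counted as a library. The targeted gene Cbx2 had 324 and 355 wild-type reads, against 27 and 25 in knockout. All 4 libraries carried reads of the Y-linked gene Ddx3y (1278 to 1396), with 0 to 3 of Xist. The fibroblast genes Col1a2 and Vim were abundant: Col1a2 stood at 130560 and 106979 and Vim at 94169 and 86705 in the authors' deposited table, wild type first. In bulk RNA, fewer cells of a type and less RNA per cell cannot be told apart.

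Loss of Cbx2 was accompanied by a split response of the 10 genes. Bnip3, Egln1 and Hif1a fell, Adm rose, and the other 6 did not pass the authors' test. The largest difference among the 4 was the fall of Bnip3 to 59.1% of wild type, and the smallest that of Hif1a to 84.5%. A gene was called where the authors' DESeq2 adjusted p, over all genes of the table, was under 0.05. That count of 4 of 10 stands beside 7.78% of all genes called, 3.48% as rises and 4.30% as falls. Among the 6025 genes with a mean of 500 to 8000, the range that holds all 4 called members, 12.4% were called. That range also holds Egln3, Vegfa and Ddit4, which were not called, while Epas1, Ankrd37 and Car9 lie below it. The median deposited log2 fold change was -0.10 over the members and 0.00 over all genes. In 8 members the scaled reads of the genotypes did not overlap, but so it was in 51.7% of the recovered genes. The 4 calls are of modest size: none reached the 2-fold change that the authors ask of their own up and down calls. With an extra 10% of variation per library added to the deposited errors, Bnip3 alone was still called, and with 20% none was. Calls in limma fits without 1 library, which leave a genotype with a single library, varied and are given at the end. Across those fits the log2 ratio ran from -0.80 to -0.72 for Bnip3 and from 0.35 to 0.47 for Adm. It ran from -0.31 to -0.24 for Egln1 and from -0.27 to -0.22 for Hif1a.

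**Figure D1:**
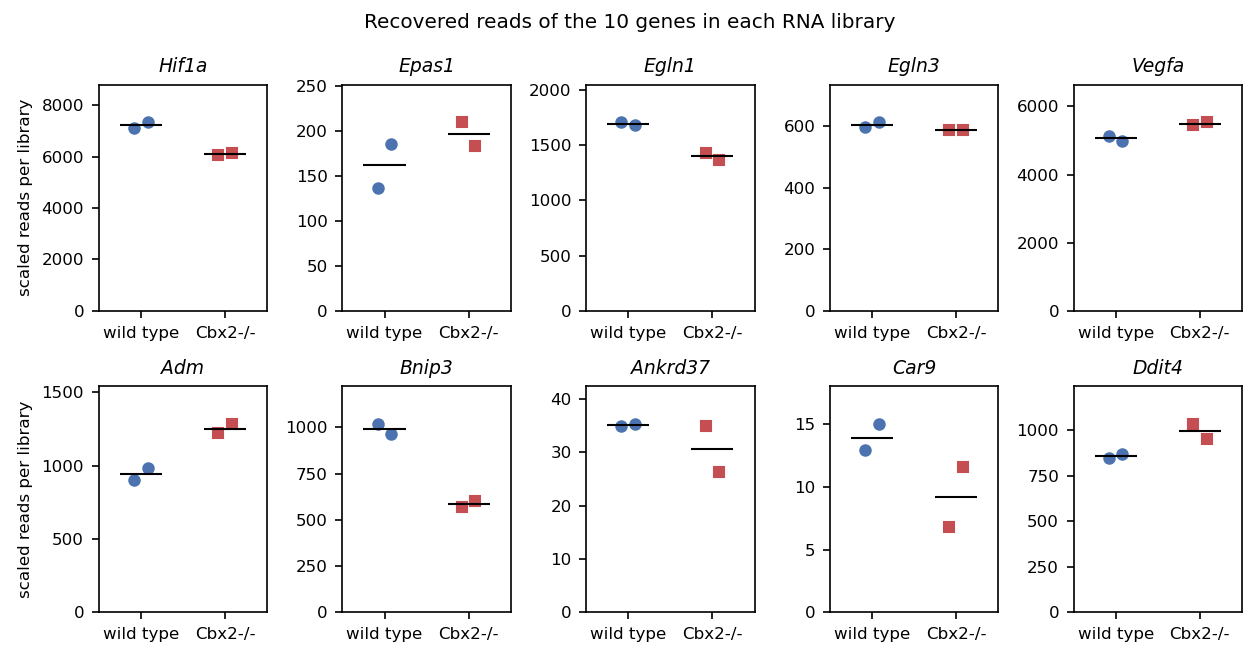
Scaled reads (y axis, linear from 0) of the 10 genes in the 2 wild-type libraries (circles) and the 2 Cbx2-/- libraries (squares), with bars at the group means. Bnip3, Egln1 and Hif1a lie lower in both knockout libraries and Adm higher, while Epas1 and Ankrd37 overlap between genotypes.

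Of the HIF subunits, Hif1a fell and Epas1 was not called. Hif1a (gene 15251, chromosome 12 from 73901324 to 73947554 in GRCm38.p6) encodes the oxygen-regulated alpha subunit found in most cells. It had 7103 and 7335 scaled reads in the wild-type libraries, against 6052 and 6144 in knockout. Both knockout libraries lay below both wild-type libraries, by at least 959 scaled reads. The authors' deposited log2 fold change was -0.24 (standard error 0.044 implied by the deposited p, DESeq2 adjusted p = 1.97e-06). Epas1 (gene 13819, chromosome 17 from 86753864 to 86833410) encodes HIF-2 alpha, prominent in endothelial cells. Its scaled reads were 137 and 186 in wild type, against 210 and 184 in knockout. The groups overlapped, and 1 wild-type library was the lowest of the 4. The deposited log2 fold change of Epas1 was 0.28 (DESeq2 adjusted p = 0.715), and on the recovered reads limma gave a 95% interval from -0.01 to 0.61. Without wild-type library a or b, the log2 ratio of Epas1 was 0.08 or 0.52.

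Of the prolyl hydroxylases, Egln1 fell and Egln3 was not called. Egln1 (gene 112405, chromosome 8 from 124908587 to 124949254) encodes PHD2, the main hydroxylase of HIF-1 alpha in normal oxygen. It had 1707 and 1684 scaled reads in wild type, against 1432 and 1366 in knockout, a fall to 82.5%. The wild-type libraries of Egln1 differed by far less than the gap of 252 between the genotypes. Its deposited log2 fold change was -0.28 (implied standard error 0.074, DESeq2 adjusted p = 0.0038). Egln3 (gene 112407, chromosome 12 from 54178981 to 54203874) encodes PHD3, whose transcript is strongly induced by hypoxia in many cells. Its scaled reads were 596 and 613 in wild type, against 589 and 589 in knockout. Those groups lay just apart, with a gap of 6.72 scaled reads. The deposited log2 fold change of Egln3 was -0.04 (DESeq2 adjusted p = 0.972), and the limma interval on recovered reads ran from -0.17 to 0.09. A test of the difference between the 2 hydroxylases was not made.

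The secreted factors among the targets were higher in knockout, with Adm called and Vegfa not. Adm (gene 11535, chromosome 7 from 110627657 to 110629820) encodes adrenomedullin, a peptide that widens vessels and acts on their lining. Its scaled reads were 902 and 984 in wild type, against 1220 and 1286 in knockout, 133% of wild type. Both knockout libraries exceeded both wild-type libraries by at least 236 scaled reads. The deposited log2 fold change of Adm was 0.41 (implied standard error 0.088, DESeq2 adjusted p = 0.000115). Vegfa (gene 22339, chromosome 17 from 46016993 to 46032377) encodes the main growth factor of blood vessels. It had 5142 and 4973 scaled reads in wild type, against 5453 and 5534 in knockout. The groups did not overlap, and knockout averaged 109% of wild type. By the authors' DESeq2 test Vegfa was not called (log2 fold change 0.12, adjusted p = 0.123), whereas limma on the recovered reads gave an adjusted p of 0.0405. That limma test called 6 of the 10 members, 3 higher and 3 lower, beside 14.6% of all recovered genes, 7.18% higher and 7.45% lower.

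Bnip3 and Ddit4, targets that act on mitochondria and growth, lay on opposite sides of 0. Bnip3 (gene 12176, chromosome 7 from 138890836 to 138909506) encodes an outer mitochondrial membrane protein that marks mitochondria for autophagy. Its scaled reads were 1020 and 966 in wild type, against 571 and 603 in knockout. No wild-type library came within 363 scaled reads of a knockout library. The deposited log2 fold change of Bnip3 was -0.75 (implied standard error 0.100, DESeq2 adjusted p = 5.13e-12), beside a median of -0.39 among all genes called lower. Leaving out any 1 library kept its log2 ratio between -0.80 and -0.72. Ddit4 (gene 74747, chromosome 10 from 59949675 to 59951770) encodes REDD1, an inhibitor of the growth kinase complex mTORC1 that also responds to p53 and other stresses. It had 847 and 873 scaled reads in wild type, against 1037 and 953 in knockout. The knockout libraries of Ddit4 were both higher, 116% of wild type on average, and they differed more between themselves than the wild-type pair did. Ddit4 was not called by the authors' DESeq2 test (log2 fold change 0.21, adjusted p = 0.217) and passed limma on the recovered reads (adjusted p = 0.0298).

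Ankrd37 and Car9, often used as markers of HIF activity, were low and not called. Ankrd37 (gene 654824, chromosome 8 from 45996908 to 46000414) encodes an ankyrin-repeat protein. It had 35 and 33 reads in wild type, against 36 and 27 in knockout. Only 1 knockout library was lower than the rest, and the groups overlapped. The deposited log2 fold change was -0.17 (DESeq2 adjusted p = 0.954), and the limma interval from -0.80 to 0.37 leaves room for a fall or a rise. Car9 (gene 230099, chromosome 4 from 43507026 to 43513729) encodes carbonic anhydrase IX, a cell surface enzyme that regulates acidity and is nearly silent in normal oxygen in many cells. Its reads were 13 and 14 in wild type, against 7 and 12 in knockout. After scaling, the groups of Car9 lay 1.27 reads apart. With so few reads no difference of Car9 was detected, and only a large one could have been. The deposited log2 fold change was -0.39 (DESeq2 adjusted p = 0.931), the recovered reads gave -0.60, and the limma interval ran from -1.56 to 0.32. Without knockout library a the log2 ratio of Car9 was -0.26, and without b it was -1.04. Ankrd37 overlaps Ufsp2 in the annotation, and Car9 overlaps Tpm2 (17744 and 17371 in the authors' deposited table) and Arhgef39. Whether counting used the strand is not given in the sources used here, so reads of these genes cannot be told apart with certainty.

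**Figure D2:**
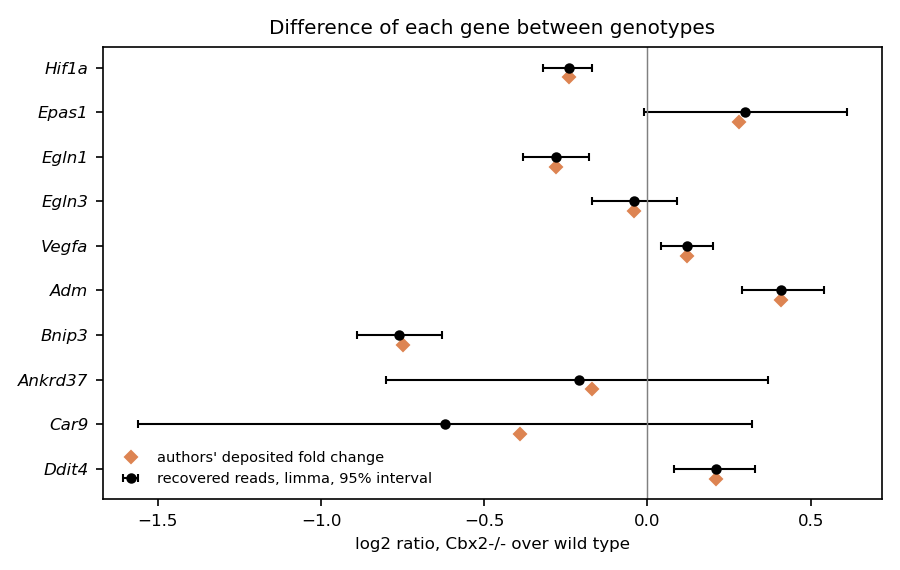
Log2 ratio of Cbx2-/- over wild type (x axis) for each gene, as limma estimates with 95% intervals on the recovered reads (circles) and as the authors' deposited fold changes (diamonds). Intervals of Hif1a, Egln1, Bnip3, Adm, Vegfa and Ddit4 lie off 0, and for Car9 the deposited value (-0.39) is nearer to 0 than that of the reads (-0.62 in limma).

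Per kilobase of deposited length, the members spanned a wide range of levels. In wild type the mean was 1533 scaled reads per kilobase for Hif1a, 1504 for Vegfa, 683 for Adm, 566 for Bnip3, 511 for Ddit4, 481 for Egln1, 224 for Egln3, 38 for Ankrd37, 30.2 for Epas1 and 7.11 for Car9. Hif1a and Vegfa could not be ordered, as their wild-type libraries overlapped on this scale, while all other neighbours in that order were apart in wild type. In knockout 3 changes of order were seen in the means. Vegfa (1634) lay above Hif1a (1295), Bnip3 (334) lay below both Ddit4 (591) and Egln1 (397), and Epas1 (36.8) lay above Ankrd37 (33.1), with overlapping knockout libraries for that last pair. Hif1a exceeded 94.8% of all genes in the deposited wild-type values per kilobase, whereas Epas1 exceeded 38.8% and Car9 28.6%. These comparisons of level were not tested.

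**Figure D3:**
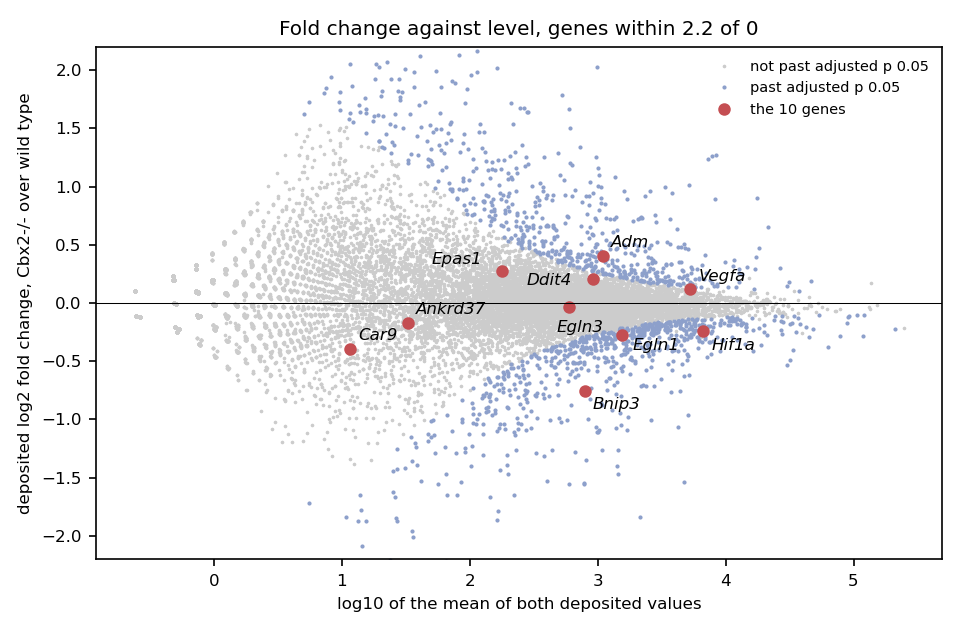
Deposited log2 fold change (y axis) against the log10 of the mean of both deposited values (x axis) for genes of the table within 2.2 of 0, with the 10 members named. Members with low values (Car9, Ankrd37, Epas1) lie inside the grey cloud of genes that were not called, and Bnip3 stands farthest from 0 of the 10.

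Most other genes of the HIF machinery were not called. Of 17 other subunits and regulators 2 rose (Arnt2 and Cited2) and 0 fell by the authors' DESeq2 test, with a median deposited log2 fold change of -0.02. Of all genes 7.78% were called, 3.48% as rises, and of genes with a mean of 500 to 8000 12.4% were called. The count of 2 is thus no result about the list as a whole. Under Holm adjustment, or with an extra 10% of variation per library, 0 of the 17 were called. Arnt2, a partner of HIF alpha found mainly in neural tissue, went from 203 and 219 scaled reads in wild type to 335 and 337 in knockout (DESeq2 adjusted p = 0.00109). Cited2, a hypoxia-induced protein that competes with HIF-1 alpha for its coactivators, went from 5146 and 5207 to 5606 and 6019 (DESeq2 adjusted p = 0.0148). In both genes the knockout libraries were above the wild-type ones. The remaining 15, among them Arnt, Vhl and Egln2, had deposited log2 fold changes between -0.42 and 0.11 and were not called.

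Other HIF targets outside glycolysis moved both ways, as the members did. Of 28 listed, 27 were in the table, and 4 rose and 6 fell by the authors' DESeq2 test. These counts stand beside 7.78% of all genes called, 3.48% as rises and 4.30% as falls. Among the 6025 genes with a mean of 500 to 8000, 12.4% were called in either direction. The list's median was -0.07 on the deposited log2 scale. P4ha1, which hydroxylates collagen prolines, went from 6836 and 6859 scaled reads in wild type to 5296 and 5168 in knockout (DESeq2 adjusted p = 8.29e-16). Plod2, a collagen lysyl hydroxylase, went the other way, from 3322 and 3255 to 4103 and 4214 (DESeq2 adjusted p = 9.42e-09). Hmox1, the heme oxygenase that also answers oxidative stress, went from 2496 and 2465 to 3198 and 3142 (DESeq2 adjusted p = 5.40e-08). Collagen-modifying enzymes in this list thus included falls (P4ha1, with P4ha2 at -0.16 and Plod1 at -0.19) and a rise (Plod2).

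The called glycolytic HIF targets all fell. Of 20 genes 14 fell and 0 rose, with a median log2 fold change of -0.20, beside 4.30% of all genes called as falls. The count depended on the setting, as the members' count did. Holm adjustment left 7 of the 20 called, and the authors' own calls of 2-fold or more left 0. With an extra 10% of variation per library 2 of the 20 were called, and with 20% 0 were. Among the 6025 genes with a mean of 500 to 8000, 12.4% were called in either direction. At high levels small differences were called too, as in Pkm (55218 in wild type and 51386 in knockout, log2 fold change -0.10). Slc16a3, the lactate exporter MCT4, went from 4119 and 4185 scaled reads in wild type to 2879 and 2894 in knockout (DESeq2 adjusted p = 1.45e-20), and Tpi1, triose phosphate isomerase, from 8450 and 8384 to 6822 and 6556 (DESeq2 adjusted p = 2.14e-12). Eno1, an enolase with a near-identical copy between which reads could be divided, had a deposited log2 fold change of -0.49 (DESeq2 adjusted p = 3.51e-45) and is uncertain. The falls of these genes were already known when the lists were drawn up.

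The receptors of the secreted factors included falls. Of 8 VEGF and adrenomedullin receptor genes 3 fell and 0 rose (median -0.22), beside 4.30% of all genes called as falls. Flt1, a VEGF receptor, went from 523 and 559 scaled reads to 334 and 402 (DESeq2 adjusted p = 0.00116). The VEGF coreceptors Nrp1 (log2 fold change -0.25, adjusted p = 6.30e-06) and Nrp2 (-0.33, 2.21e-05) were the other 2 falls by the authors' DESeq2 test. Kdr, a further VEGF receptor, was not called (log2 fold change -0.33, DESeq2 adjusted p = 0.894). The adrenomedullin receptor genes Calcrl and Ramp1 to Ramp3 were not called either. Nrp1 and Nrp2 lie in the range of means from 500 to 8000, where 12.4% of genes were called in either direction. With an extra 10% of variation per library 0 of the 8 receptor genes were called.

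Genes that share the roles of Bnip3, Ddit4 and Car9 were read against the same 7.78% of all genes called. Of 10 mitophagy receptors and partners 0 were called by the authors' DESeq2 test (median 0.02), and limma on the recovered reads called 1 higher and 1 lower. Bnip3l, the paralogue of Bnip3, belongs to that list. Of 11 regulators upstream of mTORC1 1 rose, the Ddit4 paralogue Ddit4l, from 229 and 223 scaled reads to 354 and 365 (DESeq2 adjusted p = 0.000705). The table held 13 of 14 other carbonic anhydrase genes, of which 2 rose. Car12, a further surface enzyme that is also a listed HIF target, went from 35.7 and 43.8 scaled reads to 128 and 160 (DESeq2 adjusted p = 6.24e-08), and cytosolic Car2 from 27.8 and 23.5 to 68.7 and 67.9 (DESeq2 adjusted p = 0.00829). Car12 was thus higher in both knockout libraries, while Car9 was not called.

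**Figure D4:**
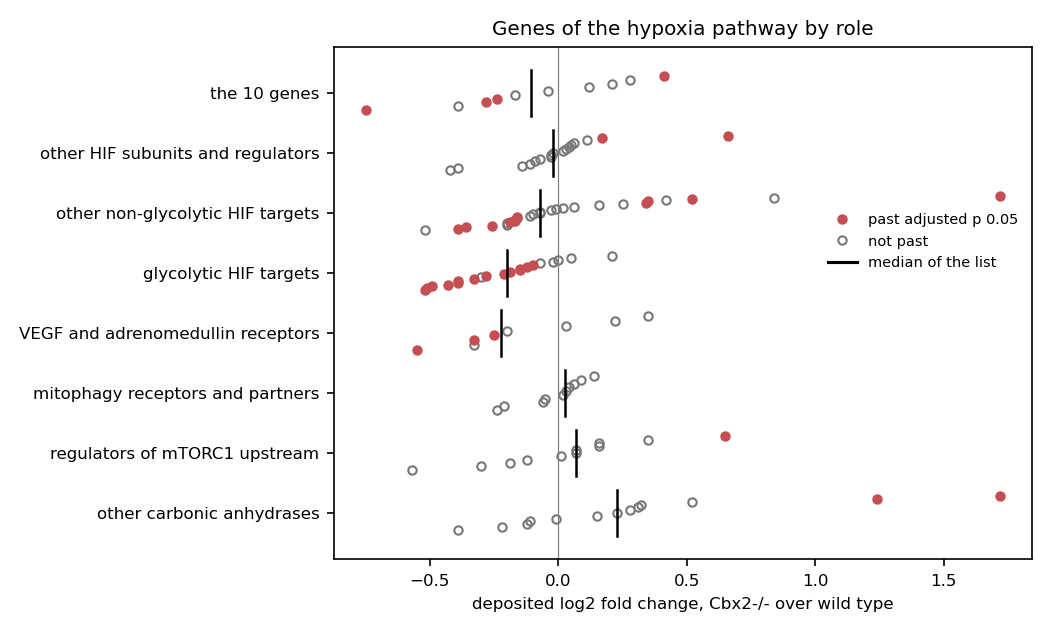
Deposited log2 fold change (x axis) of each gene in the lists of the pathway, by role (rows), filled where the DESeq2 adjusted p was under 0.05, with a line at each list's median. The called glycolytic targets all lie below 0 (14 of 20 called, beside 7.78% of all genes). The 10 genes and the other non-glycolytic targets have called genes on both sides.

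Some markers of other cells moved with genotype and others did not. The counts below stand beside 7.78% of all genes called, 3.48% as rises and 4.30% as falls. Of 15 macrophage markers 11 rose and 0 fell by the authors' DESeq2 test. Summed over the 15, scaled reads were 625 and 713 in wild type, against 2101 and 2081 in knockout. Lyz2 alone held 145 and 143 of these in wild type, against 944 and 958 in knockout. Csf1r was not called (232 and 257 against 280 and 235 scaled reads, log2 fold change 0.07). C1qb, with few reads, was lower in knockout (-0.57) and not called. Lyz2 (log2 fold change 2.68), Ctss (2.39) and Cd68 (1.47) had the smallest DESeq2 adjusted p of that list, though not the largest fold changes throughout. None was at 0 in all libraries. The leukocyte gene Ptprc had 3 and 3 reads in wild type, against 21 and 16 in knockout (DESeq2 adjusted p = 0.064). The macrophage gene Adgre1 had 2 and 7 against 23 and 31 (DESeq2 adjusted p = 0.0212). Esam, Cdh5 and 7 others made up the 9 endothelial markers measured, of which 2 rose, Esam and Cdh5. Their summed scaled reads were 1060 and 1049 in wild type, against 1611 and 1519 in knockout. Esam (34.8 and 28.9 against 300 and 288) and Cdh5 (62.6 and 53.5 against 335 and 320) held most of that rise. Eng (log2 fold change -0.02) and Kdr (-0.33) were not called, and Pecam1, the defining marker, had 1 to 3 reads in each library. Of 8 epithelial markers 2 fell, Krt8 and Krt18 (summed scaled reads of the 8 were 547 and 582 in wild type, 269 and 263 in knockout). Krt8 (96.3 and 107 against 2.9 and 4.85) and Krt18 (255 and 272 against 72.5 and 72.7) held most of that fall. Krt19 was not called (log2 fold change -0.10), and Epcam and Cdh1 had 1 to 4 reads in each library. Fibroblast markers had 8 falls and 1 rise among 11 (median -0.38). Thy1 rose by 1.27 on the deposited log2 scale, whereas Dcn (-1.06) and Col3a1 (-0.38) fell. Immediate early genes had 4 rises and 0 falls among 12 (median 0.19), of which Ier3 (log2 fold change 0.26), Egr1 (0.19) and Egr3 (0.45) had the smallest DESeq2 adjusted p. The part of these shifts in the differences of Adm, Bnip3, Egln1 and Hif1a was not tested.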

How the data were processed

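RNA-seq of 2 wild-type and 2 Cbx2-/- fibroblast libraries was used, grouped by the genotype in their labels. The tools named, per the submitters' processing notes, are RSEM, DESeq2, Bowtie2 and HISAT2, with build mm10. The sources used here give neither versions nor settings nor order. The authors deposited a normalised read signal, 1 value per genotype. The deposited log2 fold changes equal the log2 ratio of these columns to within 9.13e-09, and are pulled toward 0 where reads are few. The authors also deposited DESeq2 p-values. Benjamini-Hochberg adjustment of these, across the 17441 genes, gives their adjusted values with a difference of at most 1.33e-06. A standard error was implied from fold change and p.

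Reads were recovered in Python 3.11.15. The mean of both columns is a sum of whole reads times 4 fixed steps. Under a mean of 50 that sum alone had 1 solution in all 6126 genes. Up to a mean of 8000 the solution also had to give the deposited fold change and p in a negative binomial fit with a normal prior of variance 0.590 on the group terms. Solutions were within 0.006 reads of that fit and were searched within 5 standard deviations of balance between the libraries of a genotype. Of 10973 genes between 50 and 8000, 10957 had exactly 1 solution. The 342 genes above 8000 were not attempted. Totals shifted by a small amount, for which any match is false, matched in 0% to 1.67% of cases per band of means. The recovered reads summed to between 11086637 and 12033991 per library. limma 3.58.1 (R 4.3.3) with a trend was run on log2 of reads plus 0.5, divided by the size factors, over all 17083 recovered genes. The steps were tested on simulated data.

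Identifiers were matched to RefSeq genes of GRCm38.p6 (17400 of 17441). The members and lists were chosen with earlier results of these data known, so they are no independent evidence. Named besides the members were Cbx2, up to 3 called genes per list with the smallest adjusted p, Ptprc, Adgre1 and Pecam1. P4ha2, Plod1, Pkm, Col1a2, Vim, Ddx3y, Xist, Csf1r, C1qb, Eng, Kdr, Krt19, Epcam, Cdh1 and genes named without a value were chosen outside that rule, after values were seen. Alternatives were other thresholds, adjustments, filters, added spread, centring, pseudocounts, the limma test and leaving out each library.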

Additional observations from a re-analysis of the deposited data

How the results depend on the processing

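Limits come from having 2 libraries per genotype of unstated origin, from depth for Car9 and Ankrd37, and from recovered reads, which rest on the model of the deposited test. Centring on the median of all genes, an adjusted p under 0.01 and the limit to genes at or above the median value kept the same 4 calls, and pseudocounts of 1 and 10 changed no direction. Holm adjustment left 2 of the 10 called (Bnip3 and Hif1a, 0 higher) and 550 genes in all. The authors' own calls of 2-fold or more left 0 of the 10 (0 lower, 0 higher) and 294 genes. An extra 10% of variation per library left 1 (1 lower, Bnip3, and 0 higher) and 460 genes, and 20% left 0 (0 lower, 0 higher) and 167 genes. limma on the recovered reads, chosen after the data were seen, called 6 of the 10, 3 of them higher (Adm, Ddit4 and Vegfa), and 2498 genes in all. In leave-one-out limma fits, which leave 1 genotype with a single library assumed to vary like the other, between 0 and 3 of the 10 were called (0 to 2 lower, 0 to 1 higher), and between 0 and 946 of all genes. The counts of 0 came from leaving out either wild-type library, where at an unadjusted limma p under 0.05 there were 5 of the 10 (Adm, Bnip3, Egln1, Hif1a and Vegfa) and 3761 or 3575 genes. Without knockout library a the calls were Adm, Bnip3 and Egln1, and without b Adm, Bnip3 and Hif1a. The log2 ratio of each of the 10 kept its sign without any 1 library. No paired analysis was possible because the deposited columns carry no replicate numbers and the recovered libraries cannot be tied to them.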
